A study of Mus musculus with 2 samples.

Results

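The S100 genes described here are S100a4, S100a6, S100a8, S100a9, S100a10, S100a11 and S100a13. These 7 of the 17751 genes in the expression tables were taken by name, with earlier results of these data known. They were measured by CITE-seq, which reads the transcripts and antibody tags of single cells, in live MHCII+CD11c+ cells sorted from mouse spleen after depletion of T and B cells. Both groups were 8-week-old female mice of the C57BL/6 strain, either wildtype (WT, from the Animal Resources Centre) or Batf3-/- (from the Jackson Laboratory and bred in house). Batf3 is a transcription factor needed for the development of type 1 conventional dendritic cells (cDC1). The spleens of 6 mice were pooled into 1 library per genotype, and the experiment was done once, so neither genotype has a replicate, no difference between genotypes could be tested, and a difference between genotypes cannot be told apart from one between the libraries or mouse sources.

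S100 proteins are small calcium sensors with paired EF-hand motifs, and most work as dimers that change shape when calcium binds and then grip a target protein. S100a4 and S100a6 are abundant in motile and myeloid cells, S100a10 is a calcium-independent partner of annexin A2 at the plasma membrane, and S100a11 binds annexin A1. S100a8 and S100a9 form calprotectin, a metal-binding complex that fills the cytosol of neutrophils and classical monocytes. Conventional dendritic cells are antigen-presenting cells, of which cDC1 take up and cross-present cell-derived antigen to CD8+ T cells and cDC2 mainly prime CD4+ T cells.

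The WT library held 12224 cells with 122530055 UMIs (unique transcript molecules) and a median of 8374.5 per cell, against 12119 cells, 114517073 UMIs and a median of 8516 in Batf3-/-. Batf3 itself stood at 206 UMIs per 1000000 UMIs (CPM, 95% interval 204 to 209) in WT and at 2.49 CPM (2.21 to 2.80) in Batf3-/- cells. The authors deposited 20 clusters, C0 to C19, built from the transcripts, and the study named C4, C6, C12, C17 and C18 cDC1, C0, C5, C7, C8 and C10 cDC2a, C9 a mixed cDC2 cluster, C2 and C11 cDC2b, C1 Il4i1+, C3 Sox4+, C14 plasmacytoid, C15 monocyte, C16 of mixed identity, C19 stem cell and C13 a mix of NK, NKT, ILC and T cells. The 9 cDC1 markers checked here summed to 5256 CPM in WT C4 and 4564 CPM in WT C6, against 400 CPM in WT C0, but to 1112 CPM in WT C12 and 1546 CPM in Batf3-/- C6. The libraries shared 56 cell barcodes, a doublet caller marked 438 WT cells but 1 Batf3-/- cell, and no doublets were removed, so levels were also computed without the 10% of cells of highest doublet score. Because the clusters were drawn from the same transcripts, levels by cluster are a description.

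All 7 genes lie on chromosome 3 (GRCm38.p6), where a block of 184.687 kb from 90511034 to 90695721 holds S100a13, S100a4, S100a6, S100a8 and S100a9 among other family members, and a second block of 44.149 kb from 93520496 to 93564645 holds S100a11 and S100a10. The 250 bases before the RefSeq transcription start are shown for the 5 genes whose levels separated the clusters or the few S100a8-rich cells most clearly and had an entry, each from 5′ to 3′ on the strand of its gene.
S100a4: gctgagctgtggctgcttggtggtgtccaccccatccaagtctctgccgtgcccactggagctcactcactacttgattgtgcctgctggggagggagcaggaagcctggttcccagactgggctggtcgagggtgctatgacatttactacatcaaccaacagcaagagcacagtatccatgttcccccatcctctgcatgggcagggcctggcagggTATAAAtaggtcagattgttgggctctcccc
S100a6: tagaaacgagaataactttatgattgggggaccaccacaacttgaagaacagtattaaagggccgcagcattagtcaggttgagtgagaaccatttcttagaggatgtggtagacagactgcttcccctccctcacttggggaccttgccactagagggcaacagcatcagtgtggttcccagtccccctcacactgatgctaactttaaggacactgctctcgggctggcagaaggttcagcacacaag
S100a8: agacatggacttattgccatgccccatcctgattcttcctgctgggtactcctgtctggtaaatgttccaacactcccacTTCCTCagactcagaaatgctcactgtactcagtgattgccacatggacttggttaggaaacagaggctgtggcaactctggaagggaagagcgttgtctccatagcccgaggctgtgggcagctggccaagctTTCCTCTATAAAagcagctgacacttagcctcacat
S100a9: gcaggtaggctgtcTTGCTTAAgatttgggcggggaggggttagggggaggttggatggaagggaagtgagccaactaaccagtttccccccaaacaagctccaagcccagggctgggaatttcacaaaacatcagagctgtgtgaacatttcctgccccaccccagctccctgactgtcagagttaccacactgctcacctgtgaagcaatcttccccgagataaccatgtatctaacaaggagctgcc
S100a11: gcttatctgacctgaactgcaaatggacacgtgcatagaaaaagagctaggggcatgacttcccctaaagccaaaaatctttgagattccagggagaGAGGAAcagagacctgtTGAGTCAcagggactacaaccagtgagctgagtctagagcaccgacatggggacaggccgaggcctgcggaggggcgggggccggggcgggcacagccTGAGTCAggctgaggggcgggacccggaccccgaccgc
They are chr3:90603520-90603769 (plus strand), chr3:90612644-90612893 (plus), chr3:90668821-90669070 (plus), chr3:90695722-90695971 (minus) and chr3:93520246-93520495 (plus). Capitals mark 4 motifs searched on both strands, namely the TATA box TATAAA, the AP-1 letters TGANTCA at which Batf-family factors can act with Jun partners, the C/EBP letters TTGCNNAA, and the PU.1 letters GAGGAA. Among 27025 promoters of the same length, 12.97%, 6.87%, 9.55% and 23.1% held them. S100a4 and S100a8 had TATAAA at -31 and -30 from the start, and S100a8 also had the PU.1 letters (read on the other strand as TTCCTC) at -170 and -36, the latter directly before its TATA box. S100a9 had the C/EBP letters TTGCTTAA at -236. S100a11 had TGAGTCA at -136 and at -38, and GAGGAA at -153. The S100a6 window held none of these letters. These are matches of letters in a window, not measured binding.

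The genes differed in how widely they were detected. At least 1 UMI was found in 92.9% of all cells for S100a11, in 84.8% for S100a6, in 83.3% for S100a4, in 48.8% for S100a13 and in 38.3% for S100a10, but in 0.764% for S100a9 and 0.448% for S100a8. The first 5 were thus detected in a large share of cells and S100a8 and S100a9 in few. Free RNA adds to such shares. Levels below are CPM from the summed UMIs of a cluster and library, with exact Poisson 95% intervals, and all intervals cover counting error only.

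S100a4, which binds non-muscle myosin and is tied to cell movement, split the cDC1 clusters from the Sirpa+ ones. It reached 2011 CPM (1978 to 2045) in WT and 2437 CPM (2408 to 2467) in Batf3-/- cells of C5, the cycling cDC2a cluster, and 1912 and 2361 CPM in the Il4i1+ cluster C1. In C4, the immature cDC1 cluster, it stood at 97.5 CPM (94.2 to 101) in 2202 WT cells and at 127 CPM (97.3 to 164) in 31 Batf3-/- cells. Within the WT library C0, the largest cDC2a cluster, was 14.3-fold (13.8 to 14.8) above C4, and 68.5-fold (63.0 to 74.5) without the cells of highest doublet score (1380 and 20.2 CPM). The order from high to low in the pooled cells began with C5, then C1 and C16, which the study annotated as of mixed identity and which was above C1 in each library taken alone (1919 and 2387 CPM), and C3. It ended among clusters with at least 20 cells of each library with C6 and C4, a 23.2-fold span, which without those cells ran from C1 to C4 and was 111-fold. In WT alone the lowest was C19 (28.3 CPM from 5 UMIs), a 71.1-fold span, and in Batf3-/- alone C4, a 19.1-fold span. Of 19 neighbouring pairs in that order, 7 had overlapping intervals, and 17 overlapped once the distance between the libraries was counted as spread. That count set the lower library of a cluster against the higher of the next, so a difference between the libraries shared by the clusters counted as spread. Its pairs include C17 and C18, with 1 and 2 Batf3-/- cells. Steps within each library were not counted. By this measure the coarse order, with Il4i1+ cells and the cDC2 clusters other than C9 above cDC1, exceeded the distance between the libraries, while most single steps in it did not. The mature cDC1 cluster C12 (241 and 336 CPM), plasmacytoid C14 (247 and 295 CPM) and low-depth C9 (277 and 369 CPM) lay between. Without the cells of highest doublet score C12 had 89.3 and 120 CPM and C14 42.0 and 79.2 CPM.

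S100a6, calcyclin, followed a similar but not identical order, with r = 0.89 to S100a4 over the 20 clusters, which share libraries and depth. It was highest in C3, the Sox4+ cluster, at 1175 CPM (1148 to 1202) in WT and 1316 CPM (1298 to 1335) in Batf3-/- cells, and stood at 119 and 140 CPM in C4. C14 had 627 and 817 CPM of S100a6 against its 247 and 295 CPM of S100a4, so plasmacytoid cells sat with the Sirpa+ clusters for S100a6 and nearer the cDC1 clusters for S100a4. The mitotic cDC2a cluster C7 had 457 and 523 CPM of S100a6 while its S100a4, at 1642 and 2011 CPM, was among the high values. Its span was 16.3-fold from C3 to C19 in the pooled cells (31.5-fold without the cells of highest doublet score), 104-fold in WT alone, where C19 held 2 UMIs, and 10.4-fold in Batf3-/- alone, and 8 of 19 neighbouring pairs had overlapping intervals, or 17 once the distance between the libraries was counted.

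**Figure D1:**
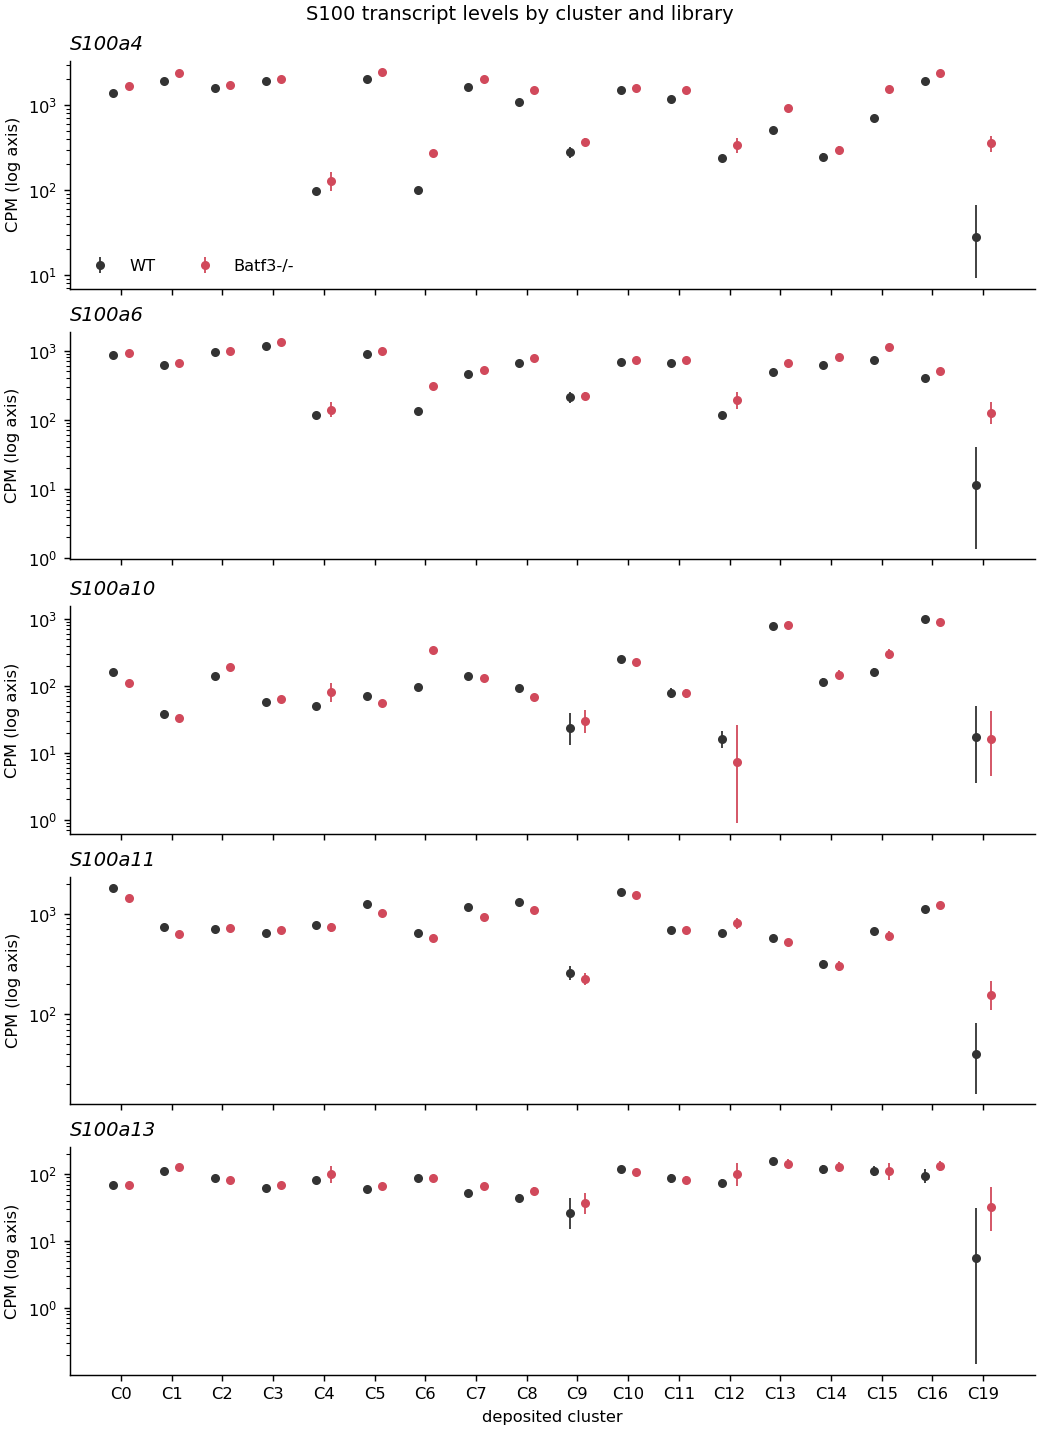
Levels of the 5 widely detected S100 genes in each deposited cluster with at least 20 cells of each library, in CPM on a log axis, for the WT and Batf3-/- libraries. Points are summed UMIs and bars exact Poisson 95% intervals. S100a4 falls from 2011 CPM in WT C5 to 97.5 CPM in WT C4, whereas S100a13 stays within a narrower band.

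S100a10 peaked in C16, the cluster of mixed identity, and in C13. It stood at 1010 CPM (939 to 1085) and 902 CPM (842 to 965) in C16 and at 779 (736 to 825) and 818 CPM (767 to 872) in C13, the NK, ILC and T cell cluster. The next cluster in the pooled cells and in WT, the cDC2a cluster C10 with mostly G2M cells, had 248 and 227 CPM, whereas in Batf3-/- C6 (343 CPM) and C15 (303 CPM) were above it, and mature cDC1 in C12 had 15.8 and 7.23 CPM, the latter from 2 UMIs in 31 cells. The span from C16 to C12 was 62.9-fold in the pooled cells, 63.8-fold in WT alone, 125-fold in Batf3-/- alone, and 181-fold without the cells of highest doublet score. Within C13 the deposited labels separated the cell types further. Cells labelled NK had 1295 and 1415 CPM of S100a10, ILC 1158 and 1003 CPM (WT then Batf3-/-), T cells 567 and 712 CPM and those labelled DC 475 and 519 CPM. S100a4 in the same cluster stood at 969 and 1683 CPM in the cells labelled DC, 525 and 398 CPM in ILC, 122 and 244 CPM in NK cells (131 and 143 CPM without 3 cells of highest doublet score in each library) and 29.2 and 52.7 CPM in T cells. S100a10 in these cells was thus lowest in those labelled DC and S100a4 highest there. Of the DC-labelled cells, however, 40 of 45 in WT and 28 of 34 in Batf3-/- were among those of highest doublet score. The remaining 5 and 6 had 624 and 1802 CPM of S100a4 (30 and 132 UMIs) and 187 and 300.3 CPM of S100a10.

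S100a11, which interacts with annexins in membrane repair, was found in nearly every cluster, with a different leader. C0 had 1834 CPM (1816 to 1852) in WT and 1458 CPM (1442 to 1474) in Batf3-/- cells, and C10 had 1666 (1616 to 1718) and 1536 CPM (1497 to 1576). C4 still had 783 and 735 CPM, within or above the range of C1, C2, C3 and C11 (633 to 738 CPM), whereas C6 had 648 and 569 CPM and C17 163 CPM in WT. Without the cells of highest doublet score C10 led. The rank of S100a11 did not separate cDC1 from cDC2b clusters as that of S100a4 did. S100a13, which takes part in the secretion of leaderless proteins such as FGF1 and IL-1α, varied over the 18 clusters by 7.13-fold in the pooled cells (27.9-fold in WT alone, where C19 held 1 UMI, and 4.44-fold in Batf3-/- alone), in each case less than the other 4 widely detected members, and 15 of its 19 neighbouring pairs had overlapping intervals. It was highest in C13 (158 and 145 CPM) and stood at 87.7 and 89.7 CPM in C6. Its listed cargoes were almost undetected, with 39 UMIs of Il1a and 10 of Fgf1 in both libraries together.

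The genes whose levels over the 20 clusters were most like each member, among 5330 genes, were taken by Pearson r of log2(CPM + 1), as a description without a test. For S100a4 they were Npl (r = 0.93), Fam107b (0.91) and Ms4a6c (0.91). For S100a6 they were Fcer1g, the signalling chain of Fc receptors (r = 0.98), Arl6ip5 (0.93) and Cybb, a subunit of the phagocyte NADPH oxidase (0.92). S100a11 was most like Actr3, Arpc1b and Cdc42 (each r = 0.90), of which the first encode subunits of the Arp2/3 actin complex and Cdc42 is a small GTPase acting on it. S100a10 had weaker matches in Sgta (0.85), Zyx (0.84) and Scamp3 (0.83), and S100a13 was most like Chmp1a (0.92), Psmb10 (0.91) and Rabac1 (0.90). S100a8 and S100a9 were each other's closest match (r = 0.99), followed by Lcn2 (0.95) and F13a1 (0.95) for S100a8 and by F13a1 (0.95) and Fn1 (0.95) for S100a9. The pair stood at 5051 and 7098 CPM in pooled C15 and at no more than 8.60 and 18.4 CPM elsewhere. These r values therefore lean on C15, where 9 cells held nearly all UMIs of the pair, and do not show that the same cells held the matched genes.

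Between the genotypes, whole-library levels depended on which clusters each library held. S100a4 stood at 892 CPM in all WT cells and 1694 CPM in all Batf3-/- cells, a log2 ratio of 0.93 (0.92 to 0.94). With both libraries weighted to the same cluster composition the levels were 1128 and 1406 CPM and the log2 ratio 0.32. S100a6 went likewise from a log2 ratio of 0.71 (504 and 824 CPM) to 0.22. The S100a4-low cluster C4 held 2202 WT and 31 Batf3-/- cells. S100a10 changed less with weighting (0.42 to 0.33), and S100a11 (-0.15 to -0.18) and S100a13 (0.08 to 0.11) hardly moved. S100a8 (-0.19 to 1.02) and S100a9 (-0.32 to 0.88) changed direction with weighting, and nearly all their UMIs came from 14 cells. Ratios are therefore given within clusters below.

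Within clusters, a gene was called past 1.5-fold where its mean was at least 50 CPM and it had at least 20 UMIs. Over the 18 clusters compared, 14 of 86 measured pairs of S100 gene and cluster were past that fold higher in Batf3-/- cells and 0 lower, where 3.12% and 2.97% of the pairs of all genes were. The 14 lay in 6 clusters, C4, C6, C12, C13, C15 and C19. The 3 in C19 and S100a10 in C4 (49.8 CPM) were under 50 CPM in WT and passed the level minimum only through Batf3-/- cells. Smaller differences ran in one direction for some members. S100a4 was higher in Batf3-/- cells in 18 of 18 clusters, by a log2 ratio of 0.10 in C2 to 3.65 in C19 with a median of 0.34, and S100a6 in 18 of 18, by 0.04 to 3.48 with a median of 0.20. In C19 both genes passed the level minimum only through Batf3-/- cells. Their direction in C19, and their place among genes measured in every cluster, thus rest on the library where they were higher. Of 789 genes measured in all 18 clusters, 8 (1.01%) were higher in every one, the others being H3f3a, Gm11808, Hmgb1, Nsa2, Atp5g2 and Cd47, and 7 genes (0.887%) were lower in every one, with no S100 gene among them. The 3 scalings (cells weighted equally, mitochondrial and ribosomal UMIs left out, and the median ratio) left both counts at 18, and without the 10% of cells of highest doublet score S100a4 was higher in 18 and S100a6 in 17 clusters, C12 being the exception. These counts kept the clusters measured with all cells, although S100a6 in C12 and C19 was under the level minimum without the cells of highest doublet score. Without those cells S100a10 in C8 was past 1.5-fold lower (90.8 and 59.8 CPM, log2 ratio -0.60, interval -0.89 to -0.32, where 0.644% of genes were lower), and S100a4 in C14 past it higher (42.0 and 79.2 CPM, 0.91, interval 0.30 to 1.54, where 1.55% of genes were higher). In C14 S100a4 was under 50 CPM in WT and passed the level minimum only through Batf3-/- cells, so nothing is read from that call. The clusters share the same pair of libraries, so their number does not replicate the difference.

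S100a11 and S100a10 differed from S100a4 in direction. S100a11 had its lower level in the Batf3-/- library in 12 of 18 clusters, with 1834 and 1458 CPM in C0 (log2 ratio -0.33, interval -0.35 to -0.31), 1163 and 935 CPM in C7 (-0.32), and 1245 and 1013 CPM in C5 (-0.30), but higher in C12 (640 and 806 CPM). Its lowest ratios were those of the cDC2a clusters C0, C7, C5 and C8 (-0.26), but cDC2a C10 was at -0.12, behind C1 (-0.22), C9 (-0.21) and C6 (-0.19), and without the cells of highest doublet score C8 was at -0.16. In cDC2b C2 it had 700 and 729 CPM. S100a10 was lower in C0 (159 and 112 CPM, log2 ratio -0.50, interval -0.58 to -0.43) and C8 (92.9 and 67.4 CPM, -0.46) but higher in C2 (139 and 193 CPM, 0.47, interval 0.38 to 0.57). Over 14 clusters where it was measured, S100a10 was higher in 7 and lower in 7. S100a13 was higher in 12 of 16, with no log2 ratio above 0.47.

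**Figure D2:**
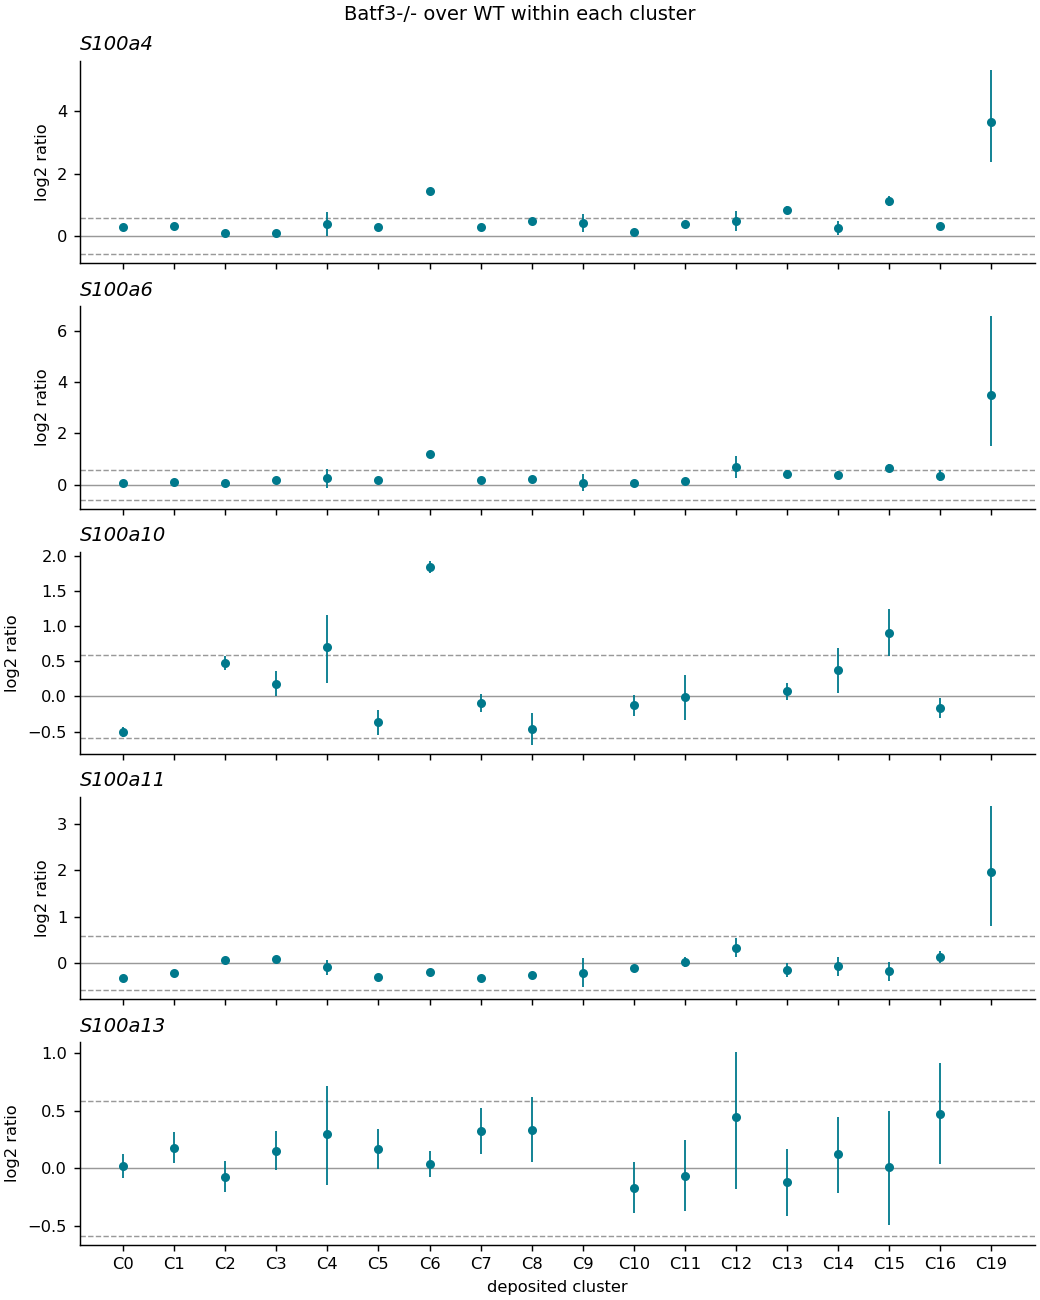
Log2 ratio of Batf3-/- to WT levels of the 5 widely detected S100 genes within each cluster, with exact 95% intervals from the split of UMIs between the libraries; dashed lines mark 1.5-fold. S100a4 and S100a6 lie above 0 in all 18 clusters, and S100a10 ranges from -0.50 in C0 to 1.84 in C6.

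C6, the cluster the study called mitotic cDC1, had 3 members past 1.5-fold. S100a10 stood at 95.6 CPM (90.8 to 101) in 797 WT cells and 343 CPM (333 to 353) in 727 Batf3-/- cells, a log2 ratio of 1.84 (1.76 to 1.93). S100a4 stood at 98.9 (94.0 to 104) and 270 CPM (262 to 279), a log2 ratio of 1.45 (1.36 to 1.54). S100a6 stood at 133 (128 to 139) and 304 CPM (295 to 314), a log2 ratio of 1.19 (1.11 to 1.27). These 3 of 5 measured members were past 1.5-fold higher in Batf3-/- cells and 0 of 5 lower, where 4.53% of 2585 genes were higher and 4.26% lower. By size of the log2 ratio S100a10 ranked 15, S100a4 20 and S100a6 29 among the 2585 genes. S100a11 went slightly the other way, from 648 (635 to 661) to 569 CPM (556 to 582), and S100a13 stood at 87.7 and 89.7 CPM with a log2 ratio of 0.03 (-0.08 to 0.15). S100a8 (5 and 6 UMIs) and S100a9 (7 and 5 UMIs) were practically undetected in C6.

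The share of cells with a UMI, to which free RNA adds, is given as a description. S100a10 was found in 53.7% (50.2 to 57.2) of WT and 89.3% (86.8 to 91.4) of Batf3-/- C6 cells, and S100a4 in 34.4% and 73.3%. With each cell thinned to 1000 UMIs the shares were 9.41% and 29.7% for S100a10, 7.15% and 19.4% for S100a4, 13.3% and 26.7% for S100a6, and 45.0% and 41.7% for S100a11. No cluster here is sure to lack these genes, and free RNA was not measured. For S100a10 the thinned share in Il4i1+ C1, a cluster of low level, was 2.64% and 2.60%. For S100a4 the thinned share was 6.50% in WT C4, and in Batf3-/- cells 9.68% in C4 (3 of 31 cells) and 16.8% in C14, near the 19.4% of C6. Thinning left out 28 WT and 42 Batf3-/- cells over all clusters and none of C6. S100a4, S100a6 and S100a10 were seen together in 17.7% of WT and 61.5% of Batf3-/- C6 cells before thinning, and in 0.502% and 2.34% (4 and 17 cells) once thinned. Before thinning none of them was seen in 12.3% and 0.825%. The median C6 cell held 1 UMI of S100a10 in WT and 5 in Batf3-/- cells, 1 and 4 of S100a6, and 0 and 2 of S100a4.

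A small part of the cells carried much of the S100a4 in C6. In WT, 21 of 797 cells had at least 20 UMIs of S100a4 and held 39.2% of its UMIs in the cluster, and in Batf3-/- cells 43 of 727 held 34.4%. In the 93 WT C6 cells among the 10% with the highest doublet score S100a4 stood at 492 CPM, and without them C6 had 37.7 CPM in WT and 239 CPM in Batf3-/- cells, a log2 ratio of 2.66 (2.53 to 2.80). S100a10 was hardly touched, at 92.96 and 350 CPM without these cells. In WT C4 the S100a4 level fell from 97.5 to 20.2 CPM (18.5 to 21.9) without its 292 high-score cells, and that of S100a6 from 119 to 77.1 CPM. Most of the S100a4 of WT C4 and WT C6 thus came from cells of high doublet score, while Batf3-/- C6 changed little, and whether these are doublets was not tested.

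**Figure D3:**
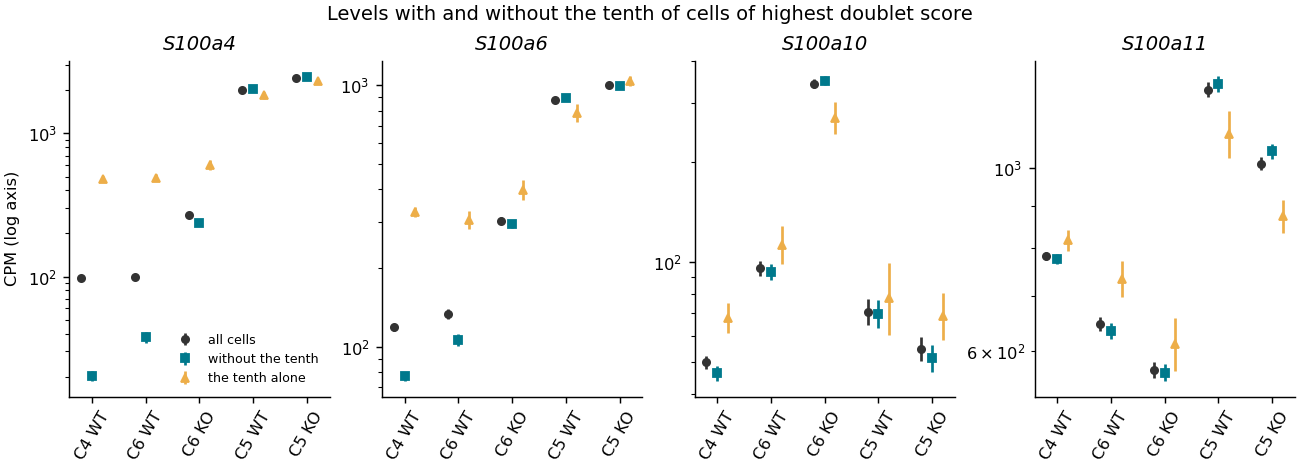
Levels of S100 genes in CPM (log axis) in selected clusters and libraries. They are drawn from all cells, without the 10% of each library's cells with the highest doublet score, and from that 10% alone. KO stands for Batf3-/-. S100a4 in WT C4 drops from 97.5 to 20.2 CPM and in WT C6 from 98.9 to 37.7 CPM, whereas S100a10 in C6 barely moves.

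Other features of C6 differed between the libraries along with these genes. Of the 8 measured cDC1 markers (Xcr1, Clec9a, Cadm1, Tlr3, Naaa, Irf8, Cd8a and Wdfy4) 8 were past 1.5-fold lower in Batf3-/- cells, where 4.26% of genes were. The summed list fell from 4564 to 1546 CPM. Of 10 listed cDC2 markers 3 were measured (Cd209a, Ltb and Cybb). They were past 1.5-fold higher, where 4.53% of genes were, and the study had already named all 3 as higher in these cells. The summed list of 10 went from 122 to 505 CPM, against 1277 CPM in WT C7, the mitotic cDC2a cluster. At 122 CPM for the whole list, the 3 were not all at 50 CPM in WT, so Batf3-/- levels helped them pass the level minimum. The summed monocyte list stood at 433 and 499 CPM, and of its 3 measured markers Ccr2 was past 1.5-fold higher and Treml4 lower. The neutrophil list stood at 2.94 and 2.60 CPM. The part of these marker lists in the S100 values was not tested. Cell cycle calls differed too, with 13 WT and 189 Batf3-/- cells in G1, 474 and 354 in S and 310 and 184 in G2M.

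Within S phase cells of C6, S100a4 stood at 96.3 and 315 CPM (log2 ratio 1.71, interval 1.60 to 1.82), S100a6 at 141 and 319 CPM (1.18) and S100a10 at 77.5 and 261 CPM (1.75). Within G2M cells S100a4 stood at 96.9 and 164 CPM (0.76, interval 0.60 to 0.92), S100a6 at 109 and 240 CPM (1.13) and S100a10 at 114 and 446 CPM (1.96). All 3 genes were thus past 1.5-fold higher in both cycling phases, where 4.42% of genes in S and 4.62% in G2M were. In G1, with 13 WT cells, they were not, and S100a6 stood at 508 CPM (414 to 616) in WT against 360 CPM (338 to 384) in Batf3-/- cells. S100a4 (279 CPM, 211 to 362, and 312 CPM, 291 to 334) and S100a10 (358 CPM, 280 to 451, and 403 CPM, 379 to 428) had overlapping intervals there.

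**Figure D4:**
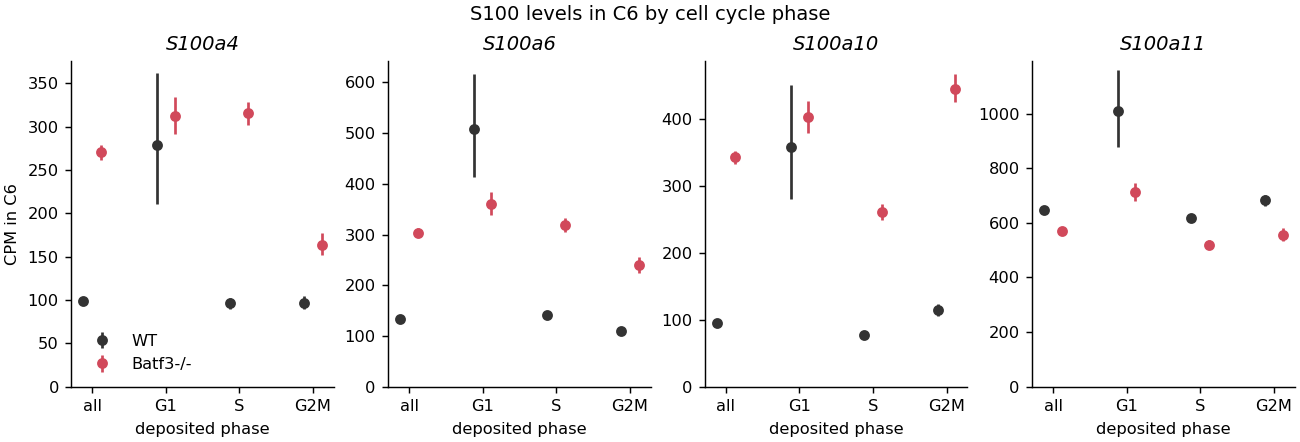
Levels of S100a4, S100a6, S100a10 and S100a11 in C6 in CPM, for all cells and by deposited cell cycle phase, WT and Batf3-/- libraries, with exact Poisson 95% intervals. The libraries are apart in S and G2M cells (S100a10 at 114 and 446 CPM in G2M). In G1, where WT has 13 cells, S100a4 and S100a10 have overlapping intervals and S100a6 is higher in WT (508 and 360 CPM).

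Among 13 listed binding partners and receptors of S100 proteins, 7 were measured in C6. Of these 1 was past 1.5-fold higher and 0 lower, where 4.53% of 2585 genes were higher and 4.26% lower. That was Anxa2, the partner of S100a10 in a heterotetramer at the membrane, at 164 (158 to 170) and 443 CPM (431 to 454), a log2 ratio of 1.43 (1.37 to 1.501), and rank 21. Anxa1, the partner of S100a11, stood at 137 and 141 CPM, Anxa6 at 336 and 369 CPM, Ahnak, a scaffold bound by the S100a10 and annexin A2 complex, at 95.8 and 113 CPM, Cacybp, the S100a6-binding protein, at 181 and 184 CPM, Myh9, the myosin heavy chain bound by S100a4, at 155 and 182 CPM, and Bsg, a receptor for S100a9, at 155 and 139 CPM. Cd36, a fatty acid receptor expressed by cDC1, stood at 85.3 and 4.46 CPM, with a mean under the level minimum. Ager, the RAGE receptor, had 32 and 23 UMIs and Tlr4 27 and 62 UMIs. Anxa2 by phase behaved as S100a10 did, with 162 and 399 CPM in S, 160 and 537 CPM in G2M and 348 and 415 CPM in G1.

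S100a1, the family member next to S100a13, was lower in Batf3-/- C6 cells (15.7 and 8.10 CPM, 246 and 109 UMIs), under the level minimum for a call. The remaining 7 family members in the tables had at most 440 UMIs each in both libraries together. Of the genes outside the family within 200 kb of the blocks, 5 had at least 20 UMIs in C6 (Gatad2b, Ints3, Ilf2, Snapin and Chtop), with log2 ratios from -0.29 to 0.08. All 5 lie on one side of the first block, so they do not cover the surroundings of the second block, which holds S100a10. Only Ilf2 passed the level minimum (73.2 and 71.4 CPM), and it was not past 1.5-fold. The higher values in C6 were thus those of S100a4, S100a6 and S100a10, which lie in different blocks, and not of S100a11 or S100a13 beside them.

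In 5 further clusters there was a member past 1.5-fold higher, each with 31 to 146 Batf3-/- cells. In C4 (2202 and 31 cells) S100a10 stood at 49.8 and 80.7 CPM (57.1 to 111), a log2 ratio of 0.70 (0.19 to 1.16), 1 of 5 members where 8.77% of genes were higher. Without the cells of highest doublet score S100a4 (20.2 and 84.2 CPM) and S100a6 (77.1 and 148 CPM) passed the fold there as well, where 10.4% of genes were higher. S100a4 was then under 50 CPM in WT and passed the level minimum only through Batf3-/- cells, so nothing is read from its call. In C12 (394 and 31 cells) S100a6 stood at 118 and 192 CPM, a log2 ratio of 0.70 (0.25 to 1.12), 1 of 4 members where 9.03% of genes were higher. Without the 4 Batf3-/- and 51 WT cells of high doublet score it stood at 46.8 and 35.7 CPM, a mean under the level minimum, and the direction turned (log2 ratio -0.39, interval -1.64 to 0.64). S100a13 then stood at 72.4 and 112 CPM and passed the fold (0.62, interval -0.04 to 1.24), where 11.2% of genes were higher. In C13 S100a4 stood at 515 and 915 CPM, a log2 ratio of 0.83 (0.70 to 0.96), 1 of 5 members where 2.55% of genes were higher. Without the cells of highest doublet score it stood at 178 and 420 CPM (1.24, interval 0.94 to 1.54, where 5.69% of genes were higher). Of the remaining Batf3-/- UMIs 132 came from 6 cells labelled DC, while NK cells had 131 and 143 CPM and ILC 293 and 101 CPM. With all cells, the DC-labelled cells there had 546 of its 797 WT UMIs and 750 of its 1054 Batf3-/- UMIs. In C19 (29 and 36 cells) S100a4 (5 and 87 UMIs), S100a6 (2 and 31) and S100a11 (7 and 38) were higher, 3 of 3 measured members where 15.4% of genes were higher. All 3 were under 50 CPM in WT (28.3, 11.3 and 39.6 CPM) and passed the level minimum only through Batf3-/- cells, so nothing is read from this count. Under the minimum, S100a10 stood at 17.0 and 16.3 CPM and S100a13 at 5.65 and 32.6 CPM. Without 3 Batf3-/- cells of highest doublet score S100a4 in Batf3-/- C19 went from 355 to 225 CPM and S100a11 from 155 to 110 CPM, both still past the fold where 13.8% of genes were higher, and S100a6 (11.3 and 64.3 CPM) fell under the level minimum and lost its call.

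C15, the monocyte cluster, was the fifth, with 5 of 7 members higher where 7.22% of genes were higher. S100a4 stood at 712 CPM (664 to 762) in 145 WT cells and at 1548 CPM (1433 to 1669) in 52 Batf3-/- cells, a log2 ratio of 1.12 (0.97 to 1.27). S100a6 stood at 721 and 1131 CPM (0.65, interval 0.49 to 0.81) and S100a10 at 161 and 303 CPM (0.91). S100a8 stood at 3742 and 8490 CPM and S100a9 at 5451 and 11428 CPM, both far above every other cluster. All but 4 UMIs of the last pair in C15 came from 9 cells.

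S100a8 and S100a9 were held by 14 cells out of 24343. These cells, chosen after their values were seen as those with at least 10 UMIs of both genes summed, had 98.8% of all S100a8 and 98.5% of all S100a9 UMIs, and the next highest cell had 4. Of the 12 WT cells, 7 lay in C15 (232 to 5706 UMIs of the pair), 3 in C2 (159 to 184), 1 in C11 (112) and 1 in C4 (48), and the 2 Batf3-/- cells lay in C15 (4006 and 4677). In the cell with the largest share the pair made up 37.8% of all its UMIs, and S100a9 gave 56.3% to 70.4% of the pair in each of the 14. Both genes were thus seen together, in a narrow proportion, in every one of these cells. S100a4 was at 0 in 11 of the 14 and at most 9 UMIs in the others.

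Neutrophil markers set the 9 C15 cells among them apart from the rest of C15, with 3094 to 153126 CPM of the 12 markers in each cell against at most 705 CPM in any other C15 cell of WT and 437 CPM in Batf3-/-. The deposited labels did so in part, since 7 of the 9 were labelled Neutrophils. Of the 14, 10 were labelled Neutrophils, 3 DC, 1 Stem cells and 0 Monocytes, and 1 further cell labelled Neutrophils had no UMI of either gene. Each of the 14 held 20 to 2757 UMIs of the neutrophil markers. Camp and Ngp, granule proteins of immature neutrophils, were seen in 5 of the 14, namely both Batf3-/- cells, 2 of the 7 WT C15 cells and the C4 cell. Those 2 WT C15 cells held 3778 of the 3971 neutrophil marker UMIs of the 7, and the other 5 had 22 to 58 each. In the other 138 WT and 50 Batf3-/- cells of C15, S100a8 had 1 and 0 UMIs and S100a9 1 and 2, and the 11 monocyte markers summed to 14616 and 21076 CPM. In the 7 and 2 S100a8-rich cells of C15 they summed to 17439 and 22281 CPM, but 2 WT cells held 961 of the 1014 WT UMIs. Of the 11 monocyte markers, 7 and 3 were present in these S100a8-rich cells, against 11 and 11 in the far more numerous other cells. Cell by cell the monocyte list ran from 640 to 40462 CPM in the 9, with 4 WT cells at 640 to 2426 CPM, against 984 to 85865 CPM in the other WT cells (median 10399.8 CPM). Ly6c2, a marker of classical monocytes, stood at 228 and 855 CPM in the other cells and at 447 and 1688 CPM in the S100a8-rich ones. Camp was at 0 in the other cells of both libraries, and the neutrophil list summed to 74.4 and 89.2 CPM there, against 68292 and 121471 CPM in the S100a8-rich cells. The other C15 cells were thus nearly without S100a8 and S100a9 in both libraries. C15 without the cells labelled Neutrophils still had 150 and 4100 CPM of S100a8, in Batf3-/- from 1 cell labelled Stem cells.

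Without the 9 cells, S100a4 in C15 stood at 749 and 1673 CPM (log2 ratio 1.16, interval 1.01 to 1.31), S100a6 at 706 and 1222 CPM (0.79) and S100a10 at 168 and 327 CPM (0.96), so these 3 of 5 measured members were past 1.5-fold where 7.71% of genes were higher. Without the cells of highest doublet score instead, C15 had 942 and 1555 CPM of S100a4 (log2 ratio 0.72, interval 0.55 to 0.89), 986 and 1354 CPM of S100a6 (0.46, not past the fold), 219 and 368 CPM of S100a10 (0.75), 6136 and 11067 CPM of S100a8 (0.85) and 8837 and 14897 CPM of S100a9 (0.75), so that 4 of 7 members were past the fold where 6.77% of genes were higher. The neutrophil list, Ly6c2 and the cDC1 list (1693 CPM in WT and 436 CPM in Batf3-/- C15) differed between the libraries as well, and their part in these values was not tested. In C2, WT S100a8 went from 23.9 to 0.483 CPM and S100a9 from 39.6 to 1.45 CPM without the 3 cells, against 0.326 and 0.783 CPM in Batf3-/- C2. Outside the 14 cells S100a8 was seen in 0.390% and S100a9 in 0.707% of cells, nearly all with 1 UMI (91 of 95 and 167 of 172 cells). In C6, a cluster with 2.94 and 2.60 CPM of neutrophil markers, S100a8 was seen in 0.627% of WT and 0.688% of Batf3-/- cells. Such shares cannot be told apart from free RNA in the droplets, and no expression is read from them.

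**Figure D5:**
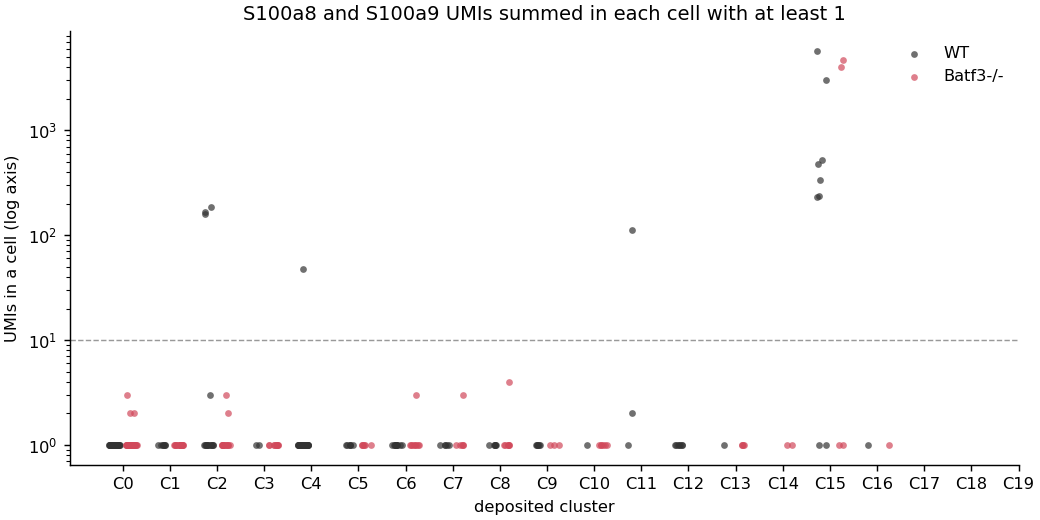
UMIs of S100a8 and S100a9 summed in each cell with at least 1, by deposited cluster and library, on a log axis; cells with 0 are not drawn and the dashed line marks 10 UMIs. The 14 cells above the line lie in C15, C2, C11 and C4, between 48 and 5706 UMIs, and every other cell has at most 4.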

How the data were processed

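CITE-seq transcripts of 1 WT and 1 Batf3-/- library were analysed, each pooled from 6 mice. The authors ran Cell Ranger on GRCm38 (mm10) after bcl2fastq 2.2.0, evened sequencing depth between libraries, and filtered and clustered cells in Seurat 3.0.5, per the submitters' processing notes and methods. The deposited tables hold counts (UMIs per gene and cell), and the deposited mitochondrial fraction was used to check the join of cells to labels, which matched in 24343 of 24343 cells. Clusters, SingleR labels and phases are the authors' deposited labels. Columns of per-sample values left unmapped numbered 0. Antibody tags and normalized tables were not used here.

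UMIs were summed per gene, cluster and library and divided by all UMIs of those cells (CPM). Intervals are exact 95% (Poisson for levels, binomial split for ratios, Clopper-Pearson for shares). With 1 library per genotype no test was run. Neighbouring clusters were compared by their intervals and by the distance between the libraries. Doublets were scored with the Scrublet method of scanpy 1.11.5 and not removed. Scripts used Python 3.11.15, numpy 2.4.6, scipy 1.17.1, pandas 2.3.3 and matplotlib 3.10.9 and were tested on simulated data. Sequences and positions are from RefSeq (GRCm38.p6); 6 of the 7 genes had a promoter entry. Exons of S100a4 overlap those of Gm42674 on the same strand, and S100a11 has a pseudogene, S100a11-ps, so both counts could be split. The genes named were the 7 members, listed family members, partners and markers, the 3 genes most like each member, and neighbours within 200 kb. Members and lists were chosen with earlier results of these data known, and the alternatives on doublet scores, phases apart, shared barcodes, S100a8-rich cells and labels were added after the data were seen.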

Additional observations from a re-analysis of the deposited data

How the results depend on the processing

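In C6 the count of members past 1.5-fold higher stayed at 3 in 9 of 10 alternatives, namely equal weight for cells, totals without mitochondrial and ribosomal genes, median scaling, S or G2M cells together and each apart, no minimum CPM, shared barcodes left out, and the 10% of cells of highest doublet score left out. In these 9, from 3.99% (S or G2M cells) to 8.72% (no minimum CPM) of genes were higher. Without the cells of highest doublet score S100a4 in C6 was at 37.7 CPM in WT and 239 CPM in Batf3-/- cells. In that alternative it passed the level minimum only through Batf3-/- cells. With G1 cells alone (13 in WT) the count was 0, where 7.51% of genes were higher, and the S100a6 log2 ratio turned to -0.50. The count lower stayed at 0. Over the 9 alternatives the log2 ratio ran from 0.76 to 2.66 for S100a4, 1.13 to 1.47 for S100a6 and 1.75 to 1.96 for S100a10. In C15 the count went from 5 of 7 measured members to 3 of 5 without the S100a8-rich cells, where 7.71% of genes were higher. These cells were chosen on S100a8 and S100a9, so the loss of both genes was fixed by that choice. Without the cells of highest doublet score the count was 4 of 7, where 6.77% of genes were higher. Without cells labelled Neutrophils it was 5 of 7, where 7.31% were. S100a6 in C12 turned to -0.39 without cells of highest doublet score, with 27 Batf3-/- cells left and a mean under 50 CPM, and in C19 it lost its call. The highest cluster of S100a10 moved from C16 to C13 with cells weighted equally, and that of S100a11 from C0 to C10 there and in the Batf3-/- library alone. Leaving out called doublets was planned but not run, because the caller marked 1 cell of 12119 in Batf3-/-. The causes were not tested. No paired analysis was possible because each genotype has 1 library. Depth limits statements on C4, C12 and C19, with 31, 31 and 36 Batf3-/- cells, and on C17 and C18, with 1 and 2.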
